A study of Mus musculus with 10 samples.

Results

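The 31 genes described here encode the machinery of sterol and fatty acid synthesis. They were taken by symbol from the 19782 genes of the deposited table: 19 enzymes that make cholesterol from acetyl-CoA, the sterol carrier Stard4, 5 genes that control the pathway through the SREBP transcription factors, and 6 genes of fatty acid synthesis and desaturation. All 31 were found, and all 31 were among the 12505 genes that passed the filter on low counts. The RNA was that of microglia, the macrophages that live in brain tissue, isolated from hippocampi of mice as CD45low CD11b+ cells. The 3 groups were wild-type mice on normal diet (4 libraries, wild-type 1 to 4), 5xFAD mice on normal diet (3 libraries, control 1 to 3) and 5xFAD mice after microglial repopulation (3 libraries, repopulated 1 to 3). 5xFAD mice are transgenic for human genes that bear mutations of familial Alzheimer disease, driven by the neuronal Thy1 promoter, and form amyloid plaques. The repopulated group ate chow with 290 mg/kg of PLX3397 for 1 month from 4 months of age, and then normal diet for 1 month. PLX3397 blocks the CSF1 receptor, whose signal keeps microglia alive, so the cells were depleted and then returned. A wild-type group after repopulation was not analysed here, so the effect of depletion and return in mice without the transgenes was not measured. The labels do not state ages for the other groups, or that the libraries of a group came from separate animals, and p-values then reflect only how far these samples spread, which may be technical.

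Cholesterol is built from acetyl-CoA through HMG-CoA, mevalonate, farnesyl diphosphate, squalene and lanosterol, and fatty acids are built from the same acetyl-CoA through malonyl-CoA. The genes of both branches are switched on by the SREBP transcription factors, SREBP2 mainly for sterols and SREBP1 mainly for fatty acids. Scap escorts the SREBP precursors out of the endoplasmic reticulum when membrane sterol is low, and the Insig proteins hold Scap back when sterol is plentiful. Insig1 is itself an SREBP target, which closes a feedback loop. In the adult brain cholesterol is made locally because the blood-brain barrier keeps out lipoproteins, and microglia take up cholesterol with the myelin and other debris they engulf.

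The libraries held 18501136 to 23286814 estimated counts. Microglial markers were abundant in all 10 libraries (summed level 36042 to 49401 CPM, the library-scaled count unit used for all levels here unless TPM is named). Of the 8 microglial markers 5 were lower in control than in wild-type libraries. The neuronal marker list, 3 of 6 genes tested, summed to 8.55 to 56.0 CPM in wild-type, 3.30 to 6.90 in control and 4.27 to 7.97 in repopulated libraries, so its sum was lower in each 5xFAD library than in each wild-type library, and 1 of the 3 tested genes was called lower in control. Wild-type 3 stood apart. It held the most neuronal transcripts (8.55 to 9.21 CPM in the rest of its group) and the most astrocyte (555 CPM against 223 to 314), oligodendrocyte (138 against 62.9 to 88.9) and erythroid transcripts (275 against 0.0449 to 20.7). Of 6 tested markers of the oligodendrocyte lineage Mag and Cnp were called lower in control than in wild type (log2 fold change -1.05 and -0.59, edgeR adjusted p = 0.00447 and 0.0462), and Cspg4 was called higher (4.36, 0.0113), at 2.27 ± 1.76 CPM in control. Of 4 tested endothelial and pericyte markers Pecam1 was called lower (log2 fold change -1.14, edgeR adjusted p = 0.0201) and Flt1 higher (4.01, 1.07e-06), at 1.45 ± 0.777 CPM in wild-type and 23.5 ± 3.63 CPM in control libraries. The neutrophil list ran from 15.5 to 287 CPM and was highest in control 2. The list of border macrophages and monocytes summed to 49.2 to 99.3 CPM in wild-type, 55.0 to 105.5 in control and 45.8 to 69.7 in repopulated libraries. Of its 6 tested genes 0 were called in control against wild type. Every listed marker of neurons, astrocytes, oligodendrocytes and neutrophils had a count in each group, while the endothelial marker Cldn5 and the erythroid marker Alas2 had none in the control and repopulated groups. Y-linked transcripts were almost missing from 3 libraries, wild-type 2, control 1 and control 3 (5.12 to 16.0 CPM, here without TMM scaling), called Y-low below, and present in the rest (342 to 484 CPM). The labels give no sex, and the split was uneven: 1 of 4 wild-type, 2 of 3 control and 0 of 3 repopulated libraries were Y-low. Values with the Y-low libraries left out, where control 2 is the lone control library and is assumed to vary like the other groups, are given for the members whose call differs.

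Promoters of 3 members are shown because many genes of the pathway share the SREBP factors and their partners as regulators. RefSeq promoter windows on GRCm38.p6, from 250 bases before to 50 bases after the start, were matched for 25 of the 31 genes, with 33 windows in all. The 250 bases before the start are printed 5′ to 3′ on the gene's strand for Hmgcs1, an enzyme gene near the head of the pathway, at chr13:119690101-119690350 (plus strand), for Msmo1, the 1 member whose window held the full sterol regulatory element, at chr8:64733579-64733828 (minus strand), and for Insig1, the member with the smallest adjusted p, at chr5:28071162-28071411 (plus strand). Capitals mark the sterol regulatory element (ATCAC, any 2 bases, CAC), its looser form CACNNCAC, which it contains, CCAAT and CACGTG on either strand, and overlapping matches run together.
Hmgcs1: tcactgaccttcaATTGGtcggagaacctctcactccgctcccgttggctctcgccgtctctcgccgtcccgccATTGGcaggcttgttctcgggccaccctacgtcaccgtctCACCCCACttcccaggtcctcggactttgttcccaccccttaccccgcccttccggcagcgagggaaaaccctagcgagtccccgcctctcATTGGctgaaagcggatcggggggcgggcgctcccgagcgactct
Msmo1: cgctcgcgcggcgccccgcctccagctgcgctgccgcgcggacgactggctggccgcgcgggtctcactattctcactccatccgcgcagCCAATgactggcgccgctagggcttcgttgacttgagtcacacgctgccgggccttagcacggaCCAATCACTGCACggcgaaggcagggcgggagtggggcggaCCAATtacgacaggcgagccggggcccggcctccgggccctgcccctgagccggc
Insig1: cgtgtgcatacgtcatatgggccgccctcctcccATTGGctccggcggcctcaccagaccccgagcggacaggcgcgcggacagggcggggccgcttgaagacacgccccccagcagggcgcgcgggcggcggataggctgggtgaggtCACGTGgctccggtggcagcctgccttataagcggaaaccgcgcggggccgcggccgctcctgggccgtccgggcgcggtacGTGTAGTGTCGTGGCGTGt
The full sterol regulatory element was found in 1 of 33 member windows (3.03%), against 0.712% of all 32851 promoter windows. Its looser form CACNNCAC was found in 7 of 33 (21.2% against 16.2%). In Insig1 the looser form lay 3 times within the last 20 bases before the start, on the minus strand. CCAAT, the site of the SREBP partner NF-Y, was found in 22 of 33 (66.7% against 37.4%). GGGCGG, the GC box of the Sp1 family, was found in 24 of 33 (72.7% against 35.7%), and CACGTG, an E-box that SREBP1 can also bind, in 6 of 33 (18.2% against 7.15%). Of the 7 matched members that were higher in control microglia 3 held CACNNCAC and 6 held CCAAT, and of the 18 other matched members 4 and 15 did. The 6 members without a window were Fdps, Fdft1, Sqle, Stard4, Scd1 and Scd2. All 6 were among the 13 members higher in control microglia, so only called members are missing from these counts. These are letter matches in a short window and were not tested.

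The first comparison asked how 5xFAD control microglia differed from wild-type microglia. Of the 31 genes 13 were higher in control microglia and 0 were lower by edgeR's quasi-likelihood test at an adjusted p under 0.05. Of all genes tested 10.1% were called higher and 8.04% lower. The median log2 fold change of the 31 was 0.73, beside -0.06 over all genes tested. Each step of the pathway held at least 1 gene that rose. The genes that rose were 8 of the 19 sterol enzymes, Stard4, Insig1 of the 5 control genes, and Acaca, Scd1 and Scd2 of the 6 fatty acid genes. Within the enzymes they were 1 of 2 from acetyl-CoA to HMG-CoA, 1 of 4 mevalonate steps, 1 of 2 prenyl diphosphate synthases, 2 of 3 in squalene and lanosterol formation, and 3 of 8 from lanosterol to cholesterol. The median log2 fold change of the 4 mevalonate genes was -0.08. In bulk RNA a larger share of cells with a transcript and more transcript per cell cannot be told apart. With the Y-low libraries left out 8 members were higher and 1, Mvd, was lower, and the median was 0.31. Without wild-type 3, the library with the most neuronal, astrocyte, oligodendrocyte and erythroid transcripts, all 13 were still called. Wild-type 3 held the fewest endothelial (24.2 CPM) and border macrophage transcripts (49.2 CPM) of its group, so leaving it out does not test those lists. The part of the neuronal, oligodendrocyte-lineage and endothelial markers that differed between these groups was otherwise not tested.

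**Figure D1:**
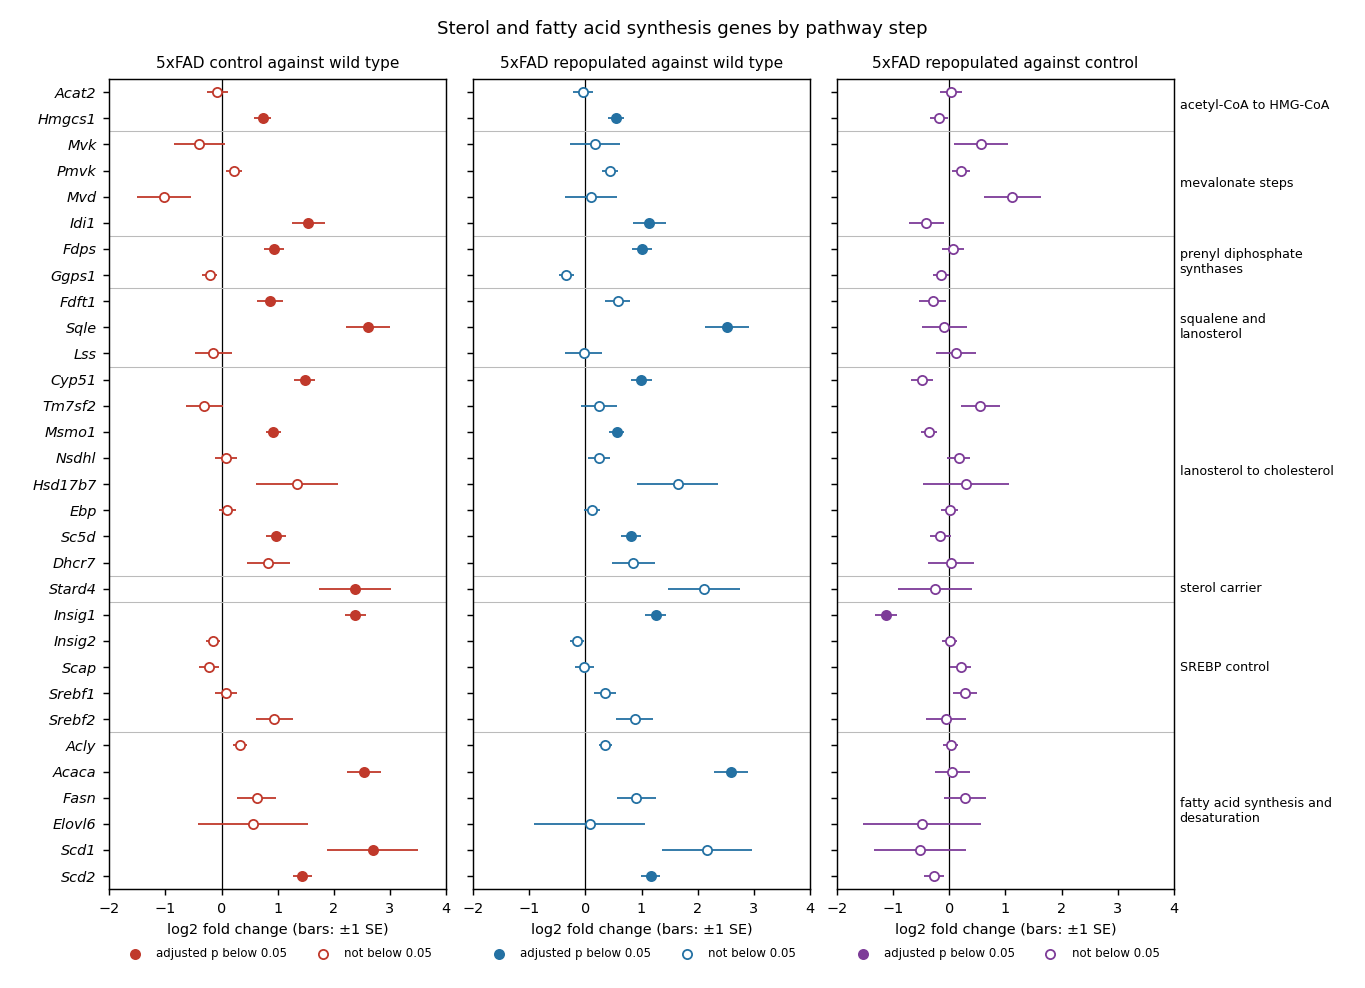
Log2 fold change of each of the 31 genes (horizontal axis, bars of 1 SE) in control against wild type, repopulated against wild type and repopulated against control, with genes grouped by pathway step from top to bottom. Filled points passed the adjusted p of 0.05: 13 genes in the first panel, 10 in the middle panel and Insig1 alone in the last.

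Among the control genes the change lay in Insig1, an anchor that holds Scap back (Entrez 231070, chromosome 5, 28071412 to 28078662 in GRCm38.p6). Insig1 had 36.6, 40.6, 45.3 and 28.1 CPM in wild-type 1 to 4, 185, 233 and 172 CPM in control 1 to 3, and 77.4, 78.1 and 113 CPM in repopulated 1 to 3. The 3 groups did not overlap, with control highest and repopulated in between. Control microglia had 5.22-fold the wild-type level (log2 fold change 2.38, SE 0.19, edgeR adjusted p = 6.54e-07). Its paralog Insig2, which anchors Scap in the same way but is not an SREBP target, had 78.5, 104, 86.3 and 87.9 CPM in wild-type, 80.8, 75.8 and 83.6 CPM in control, and 80.4, 78.9 and 81.8 CPM in repopulated libraries. Control overlapped wild type for Insig2 (log2 fold change -0.16, SE 0.12, edgeR adjusted p = 0.419). With library totals alone as the scaling Insig2 was lower (log2 fold change -0.37, edgeR adjusted p = 0.0361, 0.0361 to 0.711 over the alternatives). On the per-length TPM scale the ratio of Insig1 to Insig2 was 0.314 to 0.531 in wild-type, 1.99 to 3.05 in control and 0.945 to 1.37 in repopulated libraries, so Insig2 had the higher level in each wild-type library and Insig1 in each control library.

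Neither SREBP gene nor Scap passed the test in any of the 3 comparisons. Srebf2, which encodes SREBP2, had 7.96, 5.41, 2.77 and 6.69 CPM in wild-type, 10.6, 11.4 and 10.8 CPM in control, and 8.09, 15.6 and 7.82 CPM in repopulated libraries. Each control library lay above each wild-type library, at a log2 fold change of 0.94 (SE 0.33, edgeR adjusted p = 0.0618). The adjusted p for Srebf2 was 0.0291 with DESeq2, 0.0439 with limma-voom, 0.0486 without the filter, 0.0346 without wild-type 1 and 0.0037 after correction for GC content and length (0.0037 to 0.305 over the alternatives). Srebf1, which encodes SREBP1, was at 18.1 ± 3.16 (SD, n = 4), 19.1 ± 3.72 (n = 3) and 23.1 ± 2.96 CPM (n = 3) in the wild-type, control and repopulated groups, which overlapped between wild type and control. Scap was at 28.5 ± 5.22, 24.4 ± 1.36 and 28.1 ± 4.57 CPM, and its groups overlapped too. On the TPM scale Srebf2 was below Srebf1 in every library, with a ratio of 0.109 to 0.317 in wild-type, 0.388 to 0.606 in control and 0.291 to 0.470 in repopulated libraries.

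At the head of the pathway Hmgcs1, the HMG-CoA synthase gene (Entrez 208715, chromosome 13, 119690351 to 119708260), had 22.3, 29.4, 31.9 and 28 CPM in wild-type, 46.3, 44.3 and 48.4 CPM in control, and 42.3, 37.9 and 42.3 CPM in repopulated libraries. All 3 control libraries were above the wild-type range (log2 fold change 0.73, SE 0.14, edgeR adjusted p = 0.00281), and the 3 repopulated libraries lay between the other groups. The Hmgcs1 call was lost when the Y-low libraries were left out (log2 fold change 0.70, edgeR adjusted p = 0.0926, 5.72e-05 to 0.0926 over the alternatives). Acat2, the cytosolic thiolase that joins acetyl-CoA units, ranged over 36.7 to 61.9 CPM in the wild-type group, against 36.3 to 50.3 CPM in the control group, and did not pass (edgeR adjusted p = 0.822). Of the 4 later mevalonate genes only Idi1, which encodes isopentenyl diphosphate isomerase (Entrez 319554, chromosome 13, 8885606 to 8892396), was called. Idi1 had 5.21, 6.03, 6.9 and 3.64 CPM in wild-type, 18.4, 18.4 and 10.9 CPM in control, and 8.72, 10.2 and 17.1 CPM in repopulated libraries. Both 5xFAD groups lay above wild type and overlapped each other, and control was 2.92-fold higher than wild type (edgeR adjusted p = 0.00212). Its estimated counts were not whole in any of the 10 libraries. Splitting of reads between similar genes can give such values, and their source was not tested.

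The kinase genes Mvk and Pmvk and the decarboxylase gene Mvd did not pass in this comparison. Pmvk was at 30.6 ± 3.75 CPM in wild-type and 35.9 ± 4.05 CPM in control libraries. Mvk ranged over 1.4 to 5.73 CPM in the wild-type group, against 1.87 to 2.78 CPM in the control group, and the groups overlapped for both kinases. Mvd, which makes isopentenyl diphosphate, had 5.26, 1.66, 6.41 and 4.13 CPM in wild-type, 1.72, 1.11 and 3.58 CPM in control, and 5.57, 4.56 and 3.85 CPM in repopulated libraries. Its control libraries overlapped the wild-type range at wild-type 2 (log2 fold change -1.03, SE 0.48, edgeR adjusted p = 0.158). With the Y-low libraries left out, wild-type 2 among them, Mvd was lower in control 2 (log2 fold change -2.23, edgeR adjusted p = 0.0393, 0.0393 to 0.412 over the alternatives).

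Of the 2 prenyl diphosphate synthases, Fdps makes the farnesyl diphosphate from which sterols are built, and Ggps1 turns farnesyl diphosphate into the geranylgeranyl donor for protein prenylation. Fdps (Entrez 110196, chromosome 3, 89093588 to 89101967) had 14, 22.2, 13.8 and 17 CPM in wild-type, 32.4, 28.3 and 35.6 CPM in control, and 35.6, 34.1 and 31.1 CPM in repopulated libraries. Both 5xFAD groups lay above every wild-type library, and control was 1.92-fold higher than wild type (log2 fold change 0.94, SE 0.18, edgeR adjusted p = 0.00229). Ggps1 had 95.5, 94.9, 93.5 and 78.2 CPM in wild-type, 86.4, 77.6 and 71.5 CPM in control, and 62.7, 71.4 and 79.9 CPM in repopulated libraries, so its groups overlapped at wild-type 4. It did not pass (log2 fold change -0.21, SE 0.13, edgeR adjusted p = 0.311). Ggps1 was called lower with library totals alone (log2 fold change -0.42, edgeR adjusted p = 0.0326) and after correction for GC content and length (-0.39, 0.0444), and its adjusted p ran from 0.0326 to 0.619 over the alternatives.

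The entry into sterols proper rose at 2 of 3 genes. Fdft1, squalene synthase (Entrez 14137, chromosome 14, 63145150 to 63181687), had 11.2, 10.4, 6.51 and 13.7 CPM in wild-type, 19.9, 15.7 and 21.7 CPM in control, and 15.2, 15.2 and 16.3 CPM in repopulated libraries. Control lay above wild type (log2 fold change 0.87, SE 0.23, edgeR adjusted p = 0.017). The adjusted p of Fdft1 was 0.066 without control 1, 0.0708 without control 3, 0.0637 with library totals alone and 0.372 when the Y-low libraries were left out (0.00261 to 0.372 over the alternatives), and its counts were not whole in any library. Sqle, squalene epoxidase, a rate-limiting enzyme of the pathway (Entrez 20775, chromosome 15, 59315092 to 59331193), had 0.627, 0.902, 1.9 and 1.57 CPM in wild-type, 6.31, 10.6 and 6.03 CPM in control, and 4.72, 8.19 and 8.66 CPM in repopulated libraries. Every 5xFAD library was above every wild-type library, and control was 6.09-fold higher (log2 fold change 2.61, SE 0.40, edgeR adjusted p = 0.000392). Lss, lanosterol synthase, was at 6.38 ± 2.46 CPM in wild-type and 5.75 ± 2.15 CPM in control libraries, which overlapped.

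Of the 8 genes that turn lanosterol into cholesterol, the demethylase gene Cyp51, the methyl oxidase gene Msmo1 and the desaturase gene Sc5d rose. Cyp51 (Entrez 13121, chromosome 5, 4080674 to 4104697) had 11.2, 17, 10.8 and 15.9 CPM in wild-type, 33.7, 45.1 and 36.3 CPM in control, and 29, 24.9 and 28.4 CPM in repopulated libraries. The 3 groups of Cyp51 did not overlap, and control was 2.79-fold higher than wild type (log2 fold change 1.48, SE 0.19, edgeR adjusted p = 8.63e-05). Msmo1 (Entrez 66234, chromosome 8, 64718123 to 64733578) had 52.1, 66.7, 66.3 and 57.1 CPM in wild-type, 117, 109 and 118 CPM in control, and 78.9, 86.6 and 102 CPM in repopulated libraries. The groups of Msmo1 were likewise separate, with control 1.89-fold above wild type (edgeR adjusted p = 0.000279). Sc5d (Entrez 235293, chromosome 9, 42251592 to 42264300) had 23, 22.7, 28.2 and 18.8 CPM in wild-type, 56.2, 41.1 and 39.3 CPM in control, and 36.4, 39.1 and 47.1 CPM in repopulated libraries. Control and repopulated libraries overlapped each other above the wild-type range for Sc5d, and control was 1.96-fold higher than wild type (edgeR adjusted p = 0.00144). The Sc5d call was lost when the Y-low libraries were left out (log2 fold change 0.83, edgeR adjusted p = 0.0742, 9.23e-06 to 0.0742 over the alternatives).

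The other 5 genes of that stretch did not pass. Dhcr7, which reduces 7-dehydrocholesterol in the last step, had 13.2, 9.12, 2.96 and 12.4 CPM in wild-type and 17.6, 11.5 and 21 CPM in control libraries (edgeR adjusted p = 0.153), with wild-type 3 lowest. Hsd17b7, a sterol reductase, had no count in wild-type 3, 1.39 to 2.09 CPM in the rest of that group and 3.1 to 3.91 CPM in control libraries (edgeR adjusted p = 0.22). The lack of a count in wild-type 3 allows up to 0.146 CPM, from 3 counts and for counting error only. Ebp, the sterol isomerase, was at 104 ± 12.5 and 112 ± 17.9 CPM, Nsdhl, the decarboxylating dehydrogenase, at 21.3 ± 2.67 and 22.6 ± 5.35 CPM, and Tm7sf2, a sterol reductase, at 4 ± 0.959 and 3.23 ± 0.557 CPM in wild-type and control libraries. The groups of these 3 genes overlapped. Stard4, which carries cholesterol between membranes (Entrez 170459, chromosome 18, 33199138 to 33213862), had 2.12, 1.61, 0 and 1.89 CPM in wild-type, 7, 7.41 and 7.5 CPM in control, and 7.06, 6.35 and 4.95 CPM in repopulated libraries. The 5xFAD libraries were all above wild type, and control was 5.17-fold higher (log2 fold change 2.37, SE 0.64, edgeR adjusted p = 0.0202). The Stard4 adjusted p was 0.0545 to 0.0603 without any 1 of the control libraries, 0.0518 without the filter, 0.0592 with the compared groups alone and 0.197 when the Y-low libraries were left out (0.000147 to 0.197 over the alternatives).

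In fatty acid synthesis Acaca rose, the gene of acetyl-CoA carboxylase, which makes malonyl-CoA and is the rate-limiting enzyme of the branch (Entrez 107476, chromosome 11, 84129635 to 84401651). Acaca had 3.86, 2.37, 3.35 and 4.4 CPM in wild-type, 23.2, 12.9 and 25.2 CPM in control, and 16.4, 31.1 and 16.1 CPM in repopulated libraries. Every 5xFAD library was above every wild-type library, with control 5.83-fold higher (log2 fold change 2.54, SE 0.31, edgeR adjusted p = 4.81e-05). When the Y-low libraries were left out the log2 fold change was 1.74 (edgeR adjusted p = 0.0214, 4.06e-14 to 0.0214 over the alternatives). Fasn, the synthase that extends the chain, had 8.44, 4.89, 5.83 and 7.23 CPM in wild-type, 12.7, 4.74 and 13.2 CPM in control, and 8.99, 17.9 and 10.3 CPM in repopulated libraries. Control 2, the lowest control library for both genes, was below every wild-type library for Fasn while control 1 and 3 were above them, and the difference did not pass (log2 fold change 0.63, SE 0.34, edgeR adjusted p = 0.228). Fasn passed after correction for GC content and length (log2 fold change 1.07, edgeR adjusted p = 0.0151), and when the Y-low libraries were left out its log2 fold change was -0.59 (0.0151 to 0.539 over the alternatives). Acly, the ATP citrate lyase that supplies cytosolic acetyl-CoA, was at 92 ± 9.99 and 116 ± 4.39 CPM in wild-type and control libraries, which did not overlap, with a log2 fold change of 0.33 (SE 0.12, edgeR adjusted p = 0.0707). Its adjusted p was 0.0285 with DESeq2 (0.0285 to 0.498 over the alternatives). Elovl6, a chain elongase, was at 1.79 CPM or less in every library.

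The 2 stearoyl-CoA desaturase genes, which introduce the double bond of oleate, both rose from very different levels. Scd2 (Entrez 20250, chromosome 19, 44293676 to 44306864) had 47.8, 41.6, 57.3 and 34.7 CPM in wild-type, 128, 104 and 136 CPM in control, and 90.1, 101 and 114 CPM in repopulated libraries. Both 5xFAD groups lay above wild type, and control was 2.71-fold higher (log2 fold change 1.44, SE 0.17, edgeR adjusted p = 3.52e-05). Scd1 (Entrez 20249, chromosome 19, 44394450 to 44407709) had 0, 0.38, 0.292 and 0.449 CPM in wild-type, 1.72, 1.51 and 2.31 CPM in control, and 1.62, 1.1 and 1.15 CPM in repopulated libraries. The Scd1 groups were separate from wild type too (log2 fold change 2.69, SE 0.81, edgeR adjusted p = 0.0313), but rested on 24 counts over the 4 wild-type libraries. The call for Scd1 was lost without any 1 of the 5xFAD libraries, with the compared groups alone, with a replicate block and when the Y-low libraries were left out (0.00194 to 0.309 over the alternatives). On the TPM scale Scd2 was 48.8 to 177 times Scd1 in the 9 libraries with Scd1 counts.

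**Figure D2:**
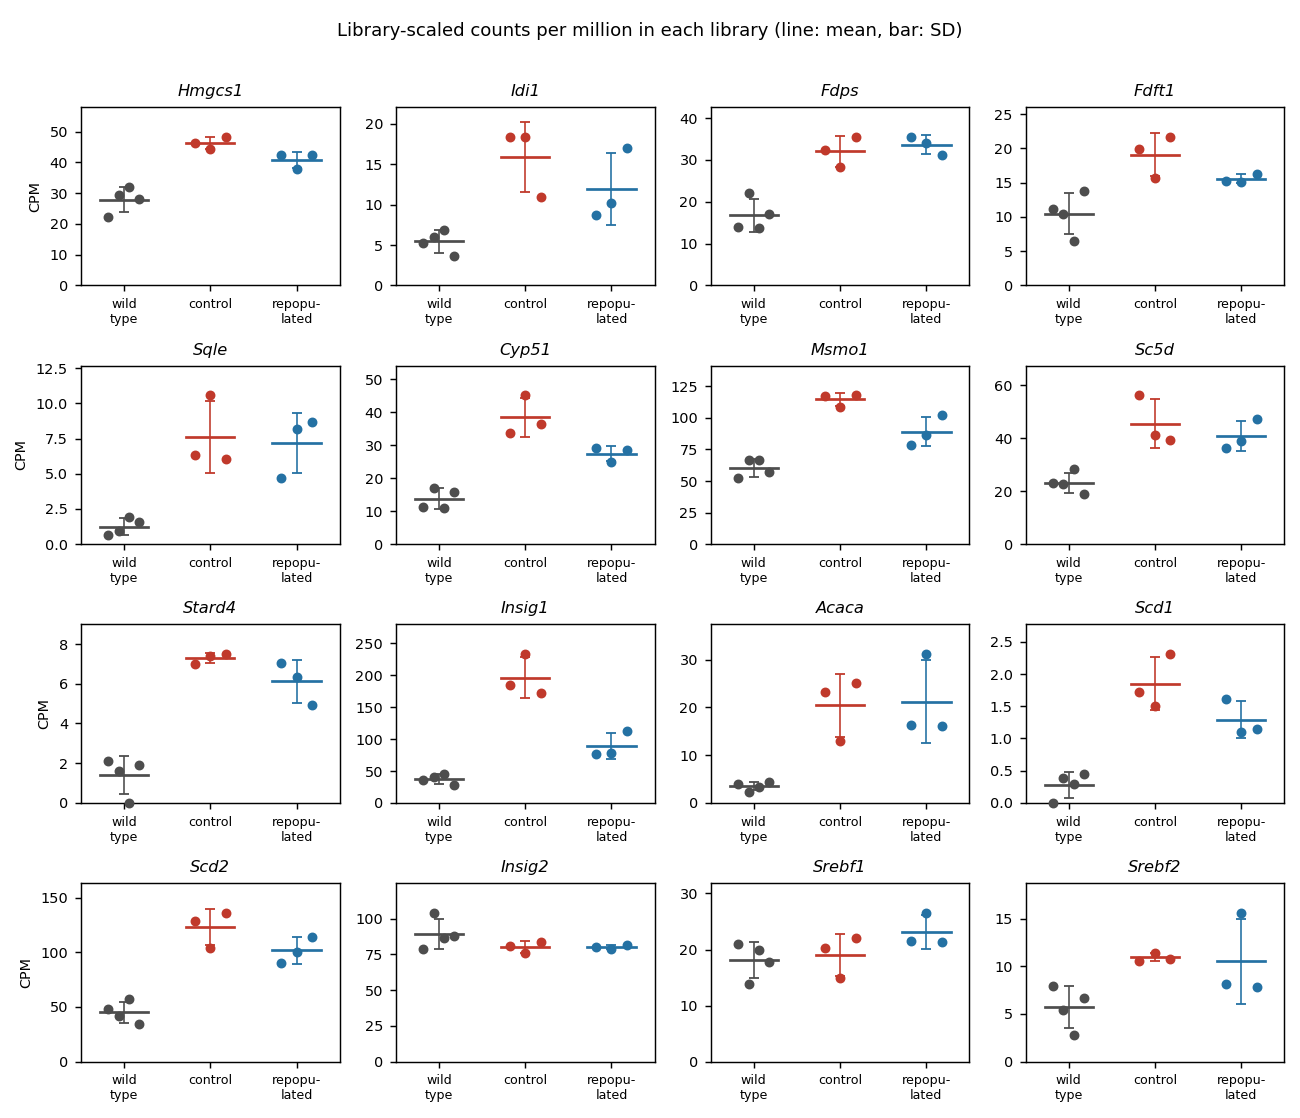
CPM of the 13 genes higher in control microglia and of Insig2, Srebf1 and Srebf2, 1 panel per gene, with a point for each library, a line at the group mean and a bar of 1 SD (vertical axis from 0, its range set per gene). In the panels of the 13 called genes every control point lies above every wild-type point. These genes were chosen by a test on the same libraries, which favours such a separation, so it is not separate support. In the Insig1 panel the repopulated points (77.4 to 113 CPM) lie between the other groups.

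The members were also ordered by their level per length. In wild-type libraries Ebp had the highest TPM of the 31 (120 ± 6.89, SD, n = 4), followed by Msmo1 (65.7 ± 3.35), Insig2 (65.2 ± 7.41) and Pmvk (60.4 ± 9.31), and the last 3 did not differ beyond their spread. Scd1 had the lowest at 0.105 ± 0.0772 TPM, below Elovl6 at 0.22 ± 0.211, Stard4 at 0.503 ± 0.351 and Hsd17b7 at 0.558 ± 0.389. Of the 10 members with the highest wild-type TPM (19.0 to 120) 3 were higher in control microglia, and of the other 21 (0.105 to 18.8 TPM) 10 were, beside 13 of all 31. The wild-type level is also the base of the fold change, so level and rise are not independent, and the split was not tested. In control libraries Insig1 reached 113 ± 21.8 TPM, beside 103 ± 14.2 for Ebp, from 27.2 ± 4.20 TPM in wild type. Summed over the 19 enzymes, TPM was 446 to 467 in wild-type, 448 to 506 in control and 497 to 528 in repopulated libraries, and the wild-type and control ranges overlapped. Summed over squalene and lanosterol formation, TPM was 7.4 to 11.7, 14 to 15.9 and 13.3 to 15.4 in the same order, so the 5xFAD groups lay above wild type there. They also did from lanosterol to cholesterol (237.2 to 249.4, 251.1 to 290.1 and 254.9 to 301.5). Over the acetyl-CoA to HMG-CoA, mevalonate and prenyl diphosphate synthase steps each 5xFAD group overlapped wild type. TPM is relative to all transcripts of a library and was not adjusted for the composition that TMM scaling corrects for CPM.

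**Figure D3:**
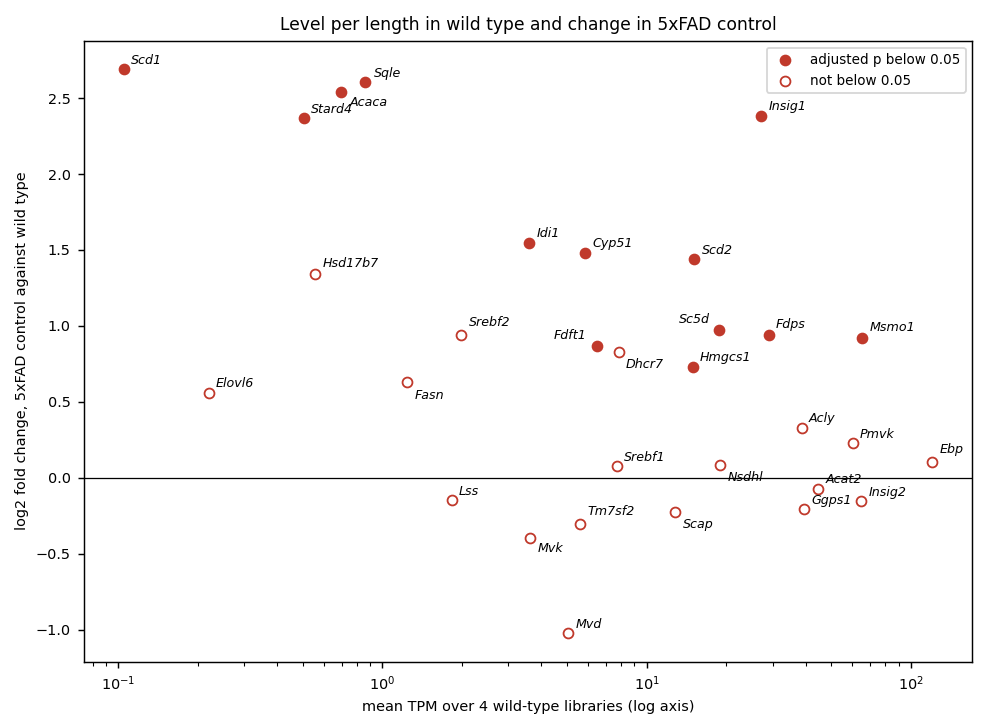
Mean TPM of each of the 31 genes over the 4 wild-type libraries (horizontal axis, log scale) against its log2 fold change in control against wild type (vertical axis), with filled points for an adjusted p under 0.05. Insig1 stands apart at 27.2 TPM and a log2 fold change of 2.38, and the other genes above 2 were below 1 TPM in wild type. The wild-type level enters both axes, so they are not independent.

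Other genes of the same network were counted from lists chosen with the design, when earlier results of these data were known. Of 18 further tested genes of sterol synthesis and the mevalonate branches 1 rose and 1 fell (5.56% each, beside 10.1% and 8.04% of all genes tested). Of 12 further genes of SREBP processing and turnover 0 were called by edgeR. An unadjusted p under 0.05 was found for 5 of the 12, beside 3974 of the 12505 genes tested. Of 19 tested further SREBP targets 3 rose (15.8%). Among them Acsl4, which activates long-chain fatty acids, and Hsd17b12, which acts in chain elongation, rose 1.74-fold and 1.42-fold (edgeR adjusted p = 0.022 and 0.0386). Acsl4 passed in 16 of 21 alternatives (0.00282 to 0.154) and Hsd17b12 in 10 of 21 (0.0161 to 0.538). Control 2 had 681 CPM of Acsl4, above the 381 and 348 CPM of control 1 and 3.

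Cholesterol handling downstream of synthesis was the last list. Of its 14 tested genes of LXR signalling, export and esterification 5 rose and 2 fell (35.7% and 14.3%, beside 10.1% and 8.04% of all genes tested), with a median log2 fold change of 0.22. Ch25h, which makes 25-hydroxycholesterol, an oxysterol that blocks SREBP processing, had 2.32, 0.237, 0.583 and 1.3 CPM in wild-type, 64.3, 43.2 and 89.6 CPM in control, and 27.3, 35.5 and 61.1 CPM in repopulated libraries. It was 58.9-fold higher in control (log2 fold change 5.88, SE 0.54, edgeR adjusted p = 3.63e-05), and no 5xFAD library came near the wild-type range. Nceh1, which hydrolyses cholesterol esters, was at 17.4 ± 5.76 CPM in wild-type and 118 ± 22.6 CPM in control libraries and rose 6.76-fold (edgeR adjusted p = 1.07e-06). Soat1, which makes those esters, was at 106 ± 25.8 and 227 ± 31.4 CPM and rose 2.14-fold (edgeR adjusted p = 0.000461), and its call was lost when the Y-low libraries were left out (log2 fold change 0.86, edgeR adjusted p = 0.0561, 3.56e-08 to 0.0561 over the alternatives). Npc2, the lysosomal cholesterol transfer protein gene, rose 2.61-fold (edgeR adjusted p = 7.99e-06). The other called genes, named after their values were seen, were the exporter gene Abcg1 (log2 fold change 0.70, edgeR adjusted p = 0.038), which rose and whose level in wild-type 3, 2547 CPM, lay within the control range, and the lysophospholipid acyltransferase gene Lpcat3 (-0.84, 0.000477) and the sterol 27-hydroxylase gene Cyp27a1 (-0.62, 0.00666), which fell. Abca1, the other main exporter gene, did not pass (log2 fold change -0.19, edgeR adjusted p = 0.397).

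The second comparison set repopulated against control microglia, both of 5xFAD mice. It called 0 of the 31 genes higher and 1 lower by edgeR, beside 0.352% of all genes tested called higher and 0.216% lower. The median log2 fold change was 0.01 over the 31 and -0.00 over all genes tested. Of the 31 genes 4 had an unadjusted edgeR p under 0.05, beside 2317 of the 12505 genes tested. The gene called was Insig1, which was at 197 ± 32.5 CPM in control and 89.7 ± 20.6 CPM in repopulated libraries and fell 2.19-fold (log2 fold change -1.13, SE 0.20, edgeR adjusted p = 0.0208). Each of the 3 repopulated libraries was below each control library, and still above each wild-type library. The call was lost without control 1 (edgeR adjusted p = 0.0766), control 2 (0.106), repopulated 1 (0.174) or repopulated 2 (0.184), with a log2 fold change of -0.99 to -1.18 there (1.63e-05 to 0.184 over the alternatives). With the Y-low libraries left out it was -1.38 (edgeR adjusted p = 0.03).

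Cyp51 and Msmo1 were next by p among the lower members. Cyp51 was at 38.4 ± 5.95 CPM in control and 27.4 ± 2.22 CPM in repopulated libraries, which did not overlap, and did not pass (log2 fold change -0.49, SE 0.20, edgeR adjusted p = 0.215). Msmo1 was at 115 ± 5.07 and 89.2 ± 11.8 CPM, again without overlap and without a call (log2 fold change -0.36, SE 0.14, edgeR adjusted p = 0.199). Mvd was at 2.14 ± 1.29 and 4.66 ± 0.869 CPM, higher in each repopulated library (log2 fold change 1.12, SE 0.51, edgeR adjusted p = 0.254). None of the other 10 genes raised in control microglia passed, and 8 of the 10 had a lower estimate in repopulated libraries. The log2 fold change was -0.52 (SE 0.82) for Scd1, -0.41 (SE 0.31) for Idi1, -0.30 (SE 0.25) for Fdft1, -0.27 (SE 0.18) for Scd2, -0.25 (SE 0.66) for Stard4 and -0.18 (SE 0.15) for Hmgcs1. Hmgcs1 was lower in each repopulated library than in each control library, and the groups overlapped for the other 9. The log2 fold change was -0.16 (SE 0.19) for Sc5d, -0.09 (SE 0.40) for Sqle, 0.05 (SE 0.31) for Acaca and 0.07 (SE 0.19) for Fdps. A p above the threshold does not show that levels were equal: on data simulated for this comparison the test found 45.9% of 2-fold and 10.6% of 1.5-fold changes. No gene of the 4 further lists was called by the main edgeR fit here. In the order above 2 of 18, 4 of 12, 4 of 19 and 7 of 14 had an unadjusted p under 0.05, beside 2317 of the 12505 genes tested. Nceh1 (log2 fold change -0.69, edgeR adjusted p = 0.146) and Soat1 (-0.54, 0.151) each passed in 2 of 21 alternatives. Npc2 (-0.38, 0.185) passed in 1 and Ch25h (-0.67, 0.476) in 0. Genes of these lists that are not reported here also passed in some. Acsl4 (log2 fold change -0.95, edgeR adjusted p = 0.0782) passed in 4 of 21 alternatives, 1 of which left out the Y-low libraries (-1.48, 0.0156, 0.00334 to 0.379 over the alternatives).

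**Figure D4:**
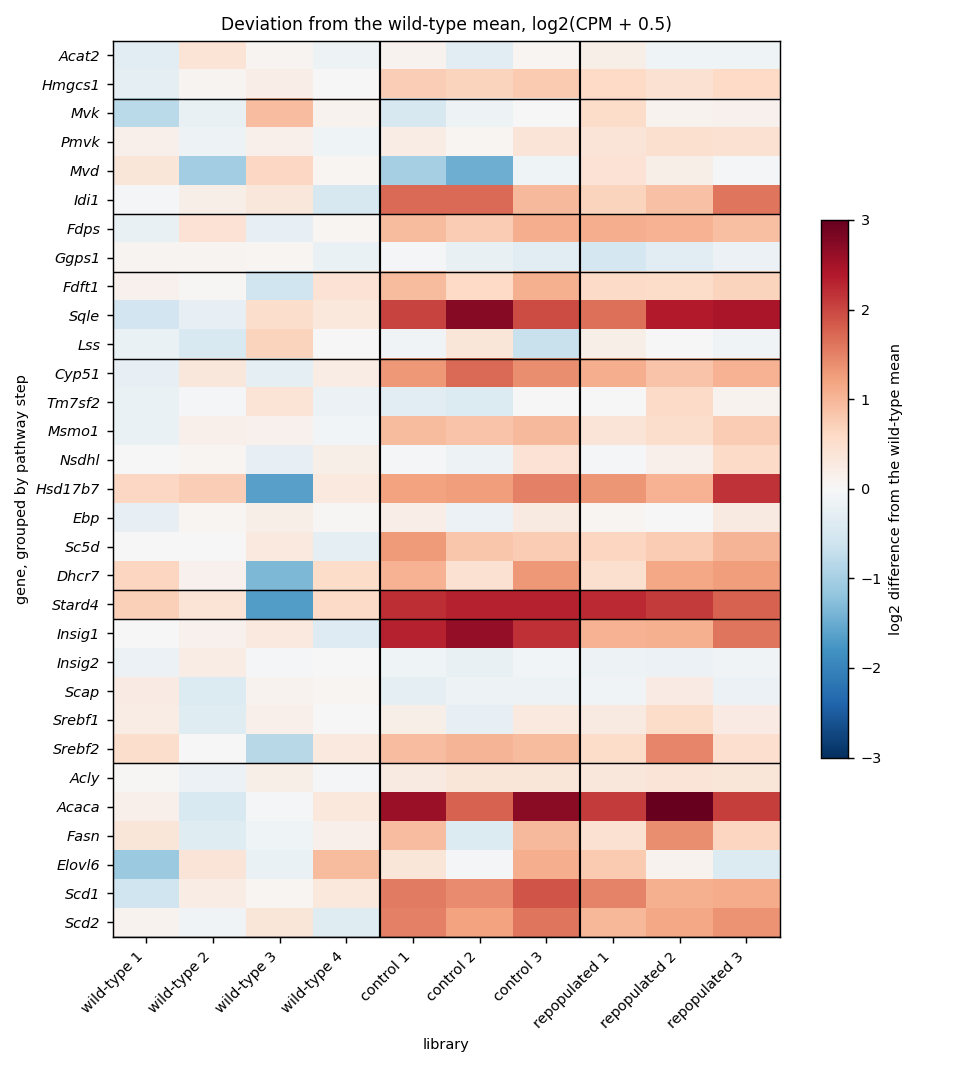
Deviation of each library (columns, groups parted by vertical lines) from the wild-type mean of the same gene (rows, by pathway step) as log2 of CPM plus 0.5, red for higher and blue for lower. The rows of Sqle, Stard4, Insig1, Acaca, Scd1 and Scd2 are red in every 5xFAD library, Insig1 less so in the repopulated libraries. Other rows, among them Idi1, Cyp51 and Sc5d, are also above the wild-type mean in every 5xFAD library. Wild-type 3 is blue for Hsd17b7 and Stard4, where it had no count.

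The third comparison set repopulated 5xFAD microglia against wild-type microglia. It shares its groups with the other comparisons, so its values are given side by side with theirs and not as separate support. Of the 31 genes 10 were higher and 0 lower by edgeR, beside 3.4% of all genes tested called higher and 0.784% lower. An unadjusted edgeR p under 0.05 was found for 20 of the 31, beside 1884 of the 12505 genes tested. The median log2 fold change was 0.56 over the 31 and -0.02 over all genes tested. The 10 were Hmgcs1, Idi1, Fdps, Sqle, Cyp51, Msmo1, Sc5d, Insig1, Acaca and Scd2, with the library values given above. Acaca was 6.05-fold higher than in wild type (log2 fold change 2.60, SE 0.31, edgeR adjusted p = 8.51e-05), beside 5.83-fold in control. Sqle was 5.73-fold higher (edgeR adjusted p = 0.00124), beside 6.09-fold in control. Insig1 was 2.38-fold higher (edgeR adjusted p = 0.000637), beside 5.22-fold. Scd2 was 2.24-fold higher (edgeR adjusted p = 0.000528), beside 2.71-fold, and Fdps 2.01-fold (0.0035), beside 1.92-fold. Cyp51 was 2-fold higher (edgeR adjusted p = 0.00544), beside 2.79-fold in control.

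The other 4 calls were nearer the threshold. The log2 fold change was 0.82 for Sc5d (edgeR adjusted p = 0.0138), 0.56 for Msmo1 (0.0279), 1.14 for Idi1 (0.0388) and 0.55 for Hmgcs1 (0.0444). All 4 lost their call without repopulated 3, with a replicate block and with the Y-low libraries left out, each of which left 6 members called. With the Y-low libraries left out their edgeR adjusted p-values were 0.0564 for Sc5d, 0.0721 for Msmo1, 0.109 for Idi1 and 0.14 for Hmgcs1. Their adjusted p-values over the alternatives ran from 0.00118 to 0.0917 for Sc5d, 0.00445 to 0.169 for Msmo1, 0.00885 to 0.266 for Idi1 and 0.0153 to 0.182 for Hmgcs1. Of the members called in control against wild type, Fdft1, Stard4 and Scd1 did not pass here, at log2 fold changes of 0.57, 2.11 and 2.17 (edgeR adjusted p = 0.234, 0.0922 and 0.185). The direct comparison of the 2 5xFAD groups called none of the 3, and with SEs of 0.25, 0.66 and 0.82 it leaves unresolved whether their levels differed. Of the 14 genes of LXR signalling, export and esterification 3 (21.4%) were higher than in wild type and 0 lower by edgeR. Of all genes tested 3.4% were called higher and 0.784% lower. An unadjusted p under 0.05 was found for 8 of the 14, beside 1884 of the 12505 genes tested. The 3 called genes were Ch25h (37-fold, edgeR adjusted p = 0.000173), Nceh1 (4.18-fold, 3.29e-05) and Npc2 (2-fold, 0.000348). Soat1 did not pass (log2 fold change 0.56, edgeR adjusted p = 0.0909), but did in 4 of 21 alternatives (0.00746 to 0.309).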

How the data were processed

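RNA of sorted hippocampal microglia was made into Smart-Seq cDNA libraries from 1 ng of total RNA, per the labels' protocols. The authors deposited estimated counts (expected counts per gene, not normalised), of which 20.1% of the nonzero values differed from a whole number by over 0.001. The authors' TPM, as named by the file headers, are relative to gene length and library and were used here to order levels. FPKM, also deposited, were not used. HISAT, Bowtie2 and GRCm38.p6 are named in the submitters' processing notes, and the quantifier is not given in the sources used here. Strandedness is also not given, so reads of overlapping antisense genes cannot be told apart. Estimated counts can split reads between similar genes: 6 members had values that were not whole (Acat2, Idi1 and Fdft1 in all 10 libraries, and Ggps1, Scd1 and Scd2 in some). Their values are uncertain to that extent.

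After rounding, genes were tested in edgeR 4.0.16 (R 4.3.3, with limma 3.58.1 and DESeq2 1.42.0): filterByExpr, TMM scaling, 1 robust quasi-likelihood model of the 3 groups over 10 libraries, and Benjamini-Hochberg adjustment over 12505 genes at 0.05. The prior count was 0.125, and SE was taken as the size of the log2 fold change divided by the root of the F statistic. The biological coefficient of variation was 27.3%. CPM used TMM-scaled totals. Each pair of same-group libraries differed by more than sampling noise. The members and lists were chosen with earlier results of these data known. Named with values were members past the threshold in any comparison, at least 1 of each step, the paralog pairs, and up to 4 genes of each further list with the smallest p among those called. Coordinates, promoters and names are from RefSeq on GRCm38.p6, which matched 19725 of 19782 genes. The test was checked on simulated data (200 of 12505 genes changed, 4 draws): in control against wild type the share found was 76.5% at 4-fold, 50.7% at 2-fold and 13.6% at 1.5-fold, with 5.5% false calls. For repopulated against wild type these were 81.3%, 51.9%, 16.7% and 4.17%, and for repopulated against control 80.2%, 45.9%, 10.6% and 6.33%. Alternatives were other scalings, DESeq2 and limma-voom, other filters, omission of each library, a replicate block, a fit of the compared groups only, a correction for GC content and length, and omission of the 3 Y-low libraries, whose Y-linked transcripts summed to under 50 CPM of unscaled totals. Scaling by library totals alone was added after seeing the data. Some genes of the further lists are counted but not reported here.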

Additional observations from a re-analysis of the deposited data

Results flagged for a closer look

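Ggps1, the geranylgeranyl diphosphate synthase gene, was at 78.2 CPM in wild-type 4, below the 93.5 to 95.5 CPM of wild-type 1 to 3. The gap to the nearest library was 0.884 of the whole range of the group, more than the 95% limit for 4 samples. It was the only such value among the wild-type groups of the 31 genes. Chance gives such a value in about 1 of 20 groups, so 1 among 31 is not unusual.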

How the results depend on the processing

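No member changed direction while called under any of the 21 alternatives per comparison. The 13 members higher in control against wild type became 8 with the 3 Y-low libraries left out, and 10 to 14 with 1 library left out. Members lower there went from 0 to 1 with the Y-low libraries left out (Mvd), to 1 after correction for GC content and length (Ggps1) and to 2 with library totals alone (Ggps1 and Insig2). The 1 member lower in repopulated against control (Insig1) was 0 to 1 with 1 library left out, and the 10 higher in repopulated against wild type were 6 to 11, with 6 without repopulated 3. That count was also 6 with the Y-low libraries left out and 6 with a replicate block. No pairing by replicate number was seen (correlations of deviations -0.105 to 0.0705 for same and -0.109 to 0.129 for different numbers). With 3 or 4 libraries a group this does not exclude one. The block gave 12 members higher in control against wild type. In control against wild type DESeq2 also called Srebf2 and Acly, limma-voom called Srebf2, and the fit without a filter called Srebf2 and lost Stard4. In repopulated against wild type DESeq2 also called Stard4 and Scd1, limma-voom lost Idi1, and the fit without a filter lost Hmgcs1. For the changes under the block, the GC correction, the other tests and the missing filter the cause was not tested.

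Library totals alone moved the median of all genes from -0.06 to -0.27 in control against wild type, from -0.00 to 0.14 in repopulated against control and from -0.02 to -0.10 in repopulated against wild type. The members' median in the first was then 0.52. All genes called higher and lower went from 1260 and 1005 to 814 and 2265, from 44 and 27 to 172 and 22, and from 425 and 98 to 361 and 159. With a filter of 5 CPM in 3 libraries 5 members were not tested. Depth limits Scd1, Elovl6, Sqle, Stard4 and Hsd17b7, which had few counts per wild-type library.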
